A study of Mus musculus with 12 samples.

Results

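Zscan4c, Zscan4d, Zscan4f, Tcstv1, Tcstv3 and Zfp352 are genes of the 2-cell mouse embryo that ES cell cultures also express, in a small share of their cells. They were followed in 12 clones of mouse induced pluripotent stem (iPS) cells, which are embryonic fibroblasts turned into ES-like cells by reprogramming factors. The 6 genes were found on the array by the transcript accession that each probe carries. Probes were present for 5 of the 6, with 3 for Zscan4c, 2 for Zfp352, 1 each for Zscan4f, Tcstv1 and Tcstv3, and none for Zscan4d. These 8 probes were described out of 55681 non-control probes, which name 20656 genes. Each genotype was represented by 6 clones with 1 array each, taken from 2 series of 3. The comparison of genotypes asks what differs between Aid-/- and Aid+/+ iPS cells. Both genotypes carried a Nanog-GFP reporter on a mixed background of C57BL6, DBA and 129S4, were labelled male, and were taken at passage 6 from gelatin-coated dishes in medium with LIF and puromycin. By the study's methods each clone is the progeny of a single picked GFP-positive colony, grown first on feeder cells and then on gelatin without them. Clones whose names share the number and letter are called a series. Among Aid+/+ clones, series 967B holds 967B2, 967B4 and 967B6 (slide 1) and series 979B holds 979B1, 979B3 and 979B4 (slide 3). Among Aid-/- clones, series 979F holds 979F1, 979F2 and 979F3 (slide 2), and 981E1, 981E4 and 981E5 (slide 3) are called the second Aid-/- series.

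In the mouse embryo, transcription of the new genome begins in earnest at the 2-cell stage, and a set of genes switches on there and off again soon after. In cultures of ES or iPS cells a few cells at a time pass through a state that expresses the same genes, while neighbouring cells do not. Zscan4 genes encode zinc finger proteins with a SCAN domain that are known for roles in telomere maintenance and genome stability, and they mark this state. The Tcstv genes were named for variable expression at the 2-cell stage, and Tcstv1 and Tcstv3 lie next to each other on chromosome 13 in RefSeq's annotation. Zfp352 encodes a further zinc finger protein of the early embryo. In RNA from a whole culture, fewer cells in the state and less RNA in each such cell cannot be told apart.

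The Zscan4 genes are near-identical copies on chromosome 7, and the start regions of 3 of them are shown because they make plain how little separates the paralogues. They are from RefSeq (GRCm38.p6), cut to the stretch that the 300-base start windows of all of them hold, and read 5′ to 3′ on the gene's strand. Capitals mark TGATTCAA, the opening letters of the sequence that the 2-cell factor Dux is known to bind, and TATAAAA, which is a form of the TATA box. Zscan4c is from chr7:11005506-11005771 on the plus strand, Zscan4d from chr7:11166133-11166398 on the minus strand and Zscan4f from chr7:11397699-11397964 on the plus strand.
Zscan4c: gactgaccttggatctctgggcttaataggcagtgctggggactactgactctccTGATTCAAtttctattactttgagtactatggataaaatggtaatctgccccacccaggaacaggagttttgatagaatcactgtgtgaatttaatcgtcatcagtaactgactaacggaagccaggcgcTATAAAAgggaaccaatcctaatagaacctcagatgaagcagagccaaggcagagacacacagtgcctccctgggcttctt
Zscan4d: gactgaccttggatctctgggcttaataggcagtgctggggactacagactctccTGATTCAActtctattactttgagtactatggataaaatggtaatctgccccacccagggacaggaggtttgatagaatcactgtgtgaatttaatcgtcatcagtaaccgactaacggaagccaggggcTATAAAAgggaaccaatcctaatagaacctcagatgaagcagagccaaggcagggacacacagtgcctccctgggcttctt
Zscan4f: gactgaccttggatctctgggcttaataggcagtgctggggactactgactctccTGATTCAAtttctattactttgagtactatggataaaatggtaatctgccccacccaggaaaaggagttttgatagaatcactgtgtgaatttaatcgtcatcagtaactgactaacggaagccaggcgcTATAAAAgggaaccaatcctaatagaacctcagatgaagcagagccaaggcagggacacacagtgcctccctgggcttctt
Over these 266 bases Zscan4c and Zscan4f differed at 2 bases (99.2% identity), and Zscan4d differed from each at 7 (97.4%). In all 3 the start of TGATTCAA lay 130 bases before that of TATAAAA. A further copy, Zscan4b, differed over this stretch from Zscan4c and from Zscan4f at 11 bases (95.9%). Its start window held TATAAAA but not TGATTCAA. Both motifs were chosen after the sequences had been seen. On either strand, TATAAAA was present in 5.48% of 32851 RefSeq start windows of 300 bases and TGATTCAA in 0.581%, and 0.0517% held both.

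The start window of Zfp352, at chr4:90218570-90218869 on the plus strand of the same build, is shown because it is made up of a short repeat and resembles the Zscan4 windows in neither motif. Capitals mark exact copies of the repeated letters.
Zfp352: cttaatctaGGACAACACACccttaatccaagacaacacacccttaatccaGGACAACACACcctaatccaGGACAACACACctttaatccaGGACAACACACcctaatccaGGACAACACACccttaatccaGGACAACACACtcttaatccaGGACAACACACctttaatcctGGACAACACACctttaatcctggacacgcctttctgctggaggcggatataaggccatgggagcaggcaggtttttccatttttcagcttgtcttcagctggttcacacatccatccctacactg
The window held 8 exact copies of GGACAACACAC and neither TATAAAA nor TGATTCAA on either strand, and no other of the 32851 windows held the repeated letters on either strand. A match of letters is a description of the sequence, not a sign that a factor binds there.

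Signals are given as log2 of the processed intensity minus the 75th percentile of the array, so that 0 is the 75th percentile. A probe is called well above background by the scanner software's own test. Between 56.9% and 60.4% of probes were well above background per array. Clone 979F3 was not well above background at the Ddx3y, Eif2s3y and Uty probes, genes of the Y chromosome at which the other 11 clones were, although it is labelled male. Clone 967B4 was unlike the rest in the member genes and in fibroblast genes. Results that rest on it are given with and without it.

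In 11 of the 12 clones the Zscan4 and Tcstv probes gave clear signals, and in clone 967B4 none of them was well above background. At the Zscan4f probe the Aid+/+ clones were at 3.68 in 967B2, -6.63 in 967B4, 3.19 in 967B6, 2.30 in 979B1, 3.87 in 979B3 and 3.39 in 979B4. The Aid-/- clones were at 4.15 in 979F1, 2.68 in 979F2, 3.21 in 979F3, 1.91 in 981E1, 3.58 in 981E4 and 3.66 in 981E5. Apart from 967B4 the ranges of the 2 genotypes overlapped almost fully, and 1 clone of each of the other series (979B1, 979F2, 981E1) was lower than its sisters.

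The 3 Zscan4c probes were high and low in much the same clones. At probe A_55_P2019533 the Aid+/+ clones were at 2.58 in 967B2, -7.26 in 967B4, 2.19 in 967B6, 0.90 in 979B1, 2.60 in 979B3 and 2.19 in 979B4, and the Aid-/- clones at 2.76 in 979F1, 1.30 in 979F2, 2.01 in 979F3, 0.54 in 981E1, 2.32 in 981E4 and 2.49 in 981E5. At A_55_P2007017 the Aid+/+ clones ran from -4.84 over a median of 1.67 to 2.31, and the Aid-/- clones from 0.27 over 1.80 to 2.39. At A_52_P363843 they ran from -7.14 over -0.50 to -0.03, and from -2.00 over -0.35 to 0.37. In each case the lowest value of the Aid+/+ clones was that of 967B4 and the lowest of the Aid-/- clones that of 981E1. The 4 Zscan4 probes followed each other over the 11 clones without 967B4 with a Pearson r of 0.978 to 0.992. Which of the near-identical paralogues each of them measures cannot be read from the files, which hold no probe sequences, so Zscan4c and Zscan4f are not told apart here and Zscan4d may be included in their signal.

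Tcstv1 (A_51_P481768) had the same outlying clone. Its Aid+/+ values were -1.96 in 967B2, -7.10 in 967B4, -2.34 in 967B6, -2.45 in 979B1, -1.49 in 979B3 and -1.76 in 979B4, and its Aid-/- values were -1.02 in 979F1, -2.57 in 979F2, -2.25 in 979F3, -3.03 in 981E1, -1.31 in 981E4 and -0.84 in 981E5. Tcstv3 (A_51_P143200) ran from -7.11 over a median of -2.57 to -2.17 in Aid+/+ clones and from -3.55 over -2.25 to -1.20 in Aid-/- clones. The highest clone was 981E5 at both Tcstv probes and 979F1 at all 4 Zscan4 probes. Tcstv1 and Tcstv3 followed each other with r = 0.970 over the 11 clones, and as related genes they too may share signal.

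**Figure D1:**
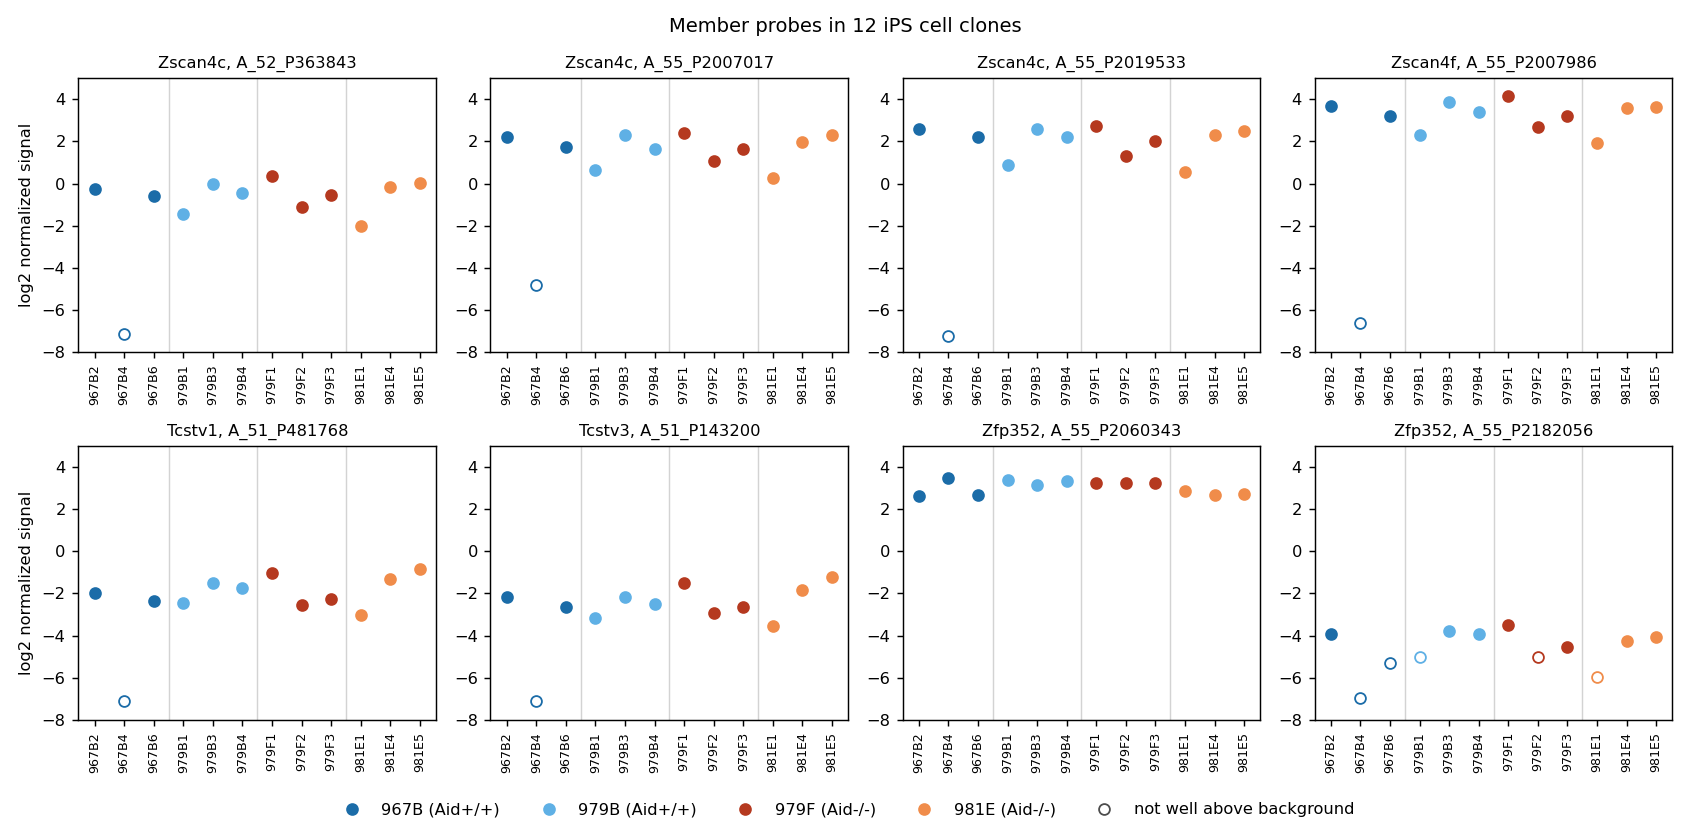
Log2 normalized signal of the 8 member probes (1 panel each) in the 12 clones, ordered and coloured by clone series, with open circles where the probe was not well above background. Clone 967B4 is at the bottom of every panel except that of Zfp352 probe A_55_P2060343, where it is highest at 3.47.

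The 2 probes of Zfp352 carry the same accession and did not behave alike. Probe A_55_P2060343 was well above background in all 12 clones and nearly flat, from 2.65 over a median of 3.26 to 3.47 in Aid+/+ clones and from 2.67 over 3.07 to 3.26 in Aid-/- clones, and 967B4 was its highest clone. Probe A_55_P2182056 was well above background in 7 clones, at values of -3.94 in 967B2, -3.79 in 979B3, -3.91 in 979B4, -3.50 in 979F1, -4.56 in 979F3, -4.26 in 981E4 and -4.06 in 981E5. It was not well above background in 967B4, 967B6, 979B1, 979F2 and 981E1, which include the lower clone of every series at the Zscan4 probes. Over the 11 clones without 967B4 it followed the 6 Zscan4 and Tcstv probes with r of 0.818 to 0.912, while A_55_P2060343 had r of -0.315 to -0.164 with them and 0.097 with its partner probe. Levels and genotype differences of Zfp352 are therefore given per probe, while its family mean further on averages both.

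At 7 of the 8 probes clone 967B4 was not well above background. Its sister clones 967B2 and 967B6, from the same series and slide, were well above background at all 6 Zscan4 and Tcstv probes. Set against the mean of the other 5 Aid+/+ clones (SD 0.40 to 0.70), and taking as its level the higher of its own signal and the lowest signal well above background on its array (-5.13), 967B4 was at least 340-fold lower at Zscan4f. For Zscan4c it was at least 149-fold lower at A_55_P2019533, at least 93.6-fold at A_55_P2007017 and at least 23.8-fold at A_52_P363843. Tcstv1 was at least 8.72-fold and Tcstv3 at least 6.06-fold lower. These bounds grow with how far a probe's signal stands above background, so they do not rank the genes. There is 1 array of this clone, and the difference has no replicate check.

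Signal lost in 967B4 alone was uncommon. Of 28755 probes well above background in all of the other 11 clones, 434, or 1.51%, were not in 967B4, while 6 of the 7 member probes in that position were not. The share over all probes lost in the same way in any of the other clones was 0.0565% to 0.785%, a count in which only Zfp352 probe A_55_P2060343 could appear among the members, since the others were not well above background in 967B4. The members had been named and 967B4 picked out with these values known, so the counts are a description.

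The genotypes were compared over all 6 clones of each, and no member probe differed past the threshold of an adjusted p of 0.05 (limma, Benjamini-Hochberg over all probes). Of the 55681 probes 34 did, or 0.0611%, and 0 of the 8 member probes did. At an unadjusted p of 0.05 the count was also 0 of 8, where 13.6% of all probes passed, and the methods' t-test called none either. The mean of Zscan4f was 3.20 ± 0.80 (SD, n = 6) in Aid-/- clones and 1.63 ± 4.09 in Aid+/+ clones, a difference of 1.57 with a standard error of 1.55 (limma adjusted p = 0.728). Without 967B4 the Aid+/+ mean was 3.29 and the difference -0.09, with a standard error of 0.40 (limma adjusted p = 0.948). Over all 12 clones the Zscan4c probes were higher in Aid-/- clones by 0.98 to 1.37, and without 967B4 the differences were -0.19 to -0.02.

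The Tcstv differences too were smaller without 967B4. At the Tcstv and Zscan4 probes alike they were then smaller than their standard errors, which were 0.40 to 0.43. The signs of these differences therefore do not set the families apart. Tcstv1 was at -1.84 ± 0.90 in Aid-/- and -2.85 ± 2.11 in Aid+/+ clones, a difference of 1.01 with a standard error of 0.86 (limma adjusted p = 0.679), and without 967B4 the difference was 0.16. Tcstv3 differed by 1.01 with a standard error of 0.79 (limma adjusted p = 0.642), and by 0.24 without 967B4. For Zfp352 the differences were -0.12 at A_55_P2060343 and 0.26 at A_55_P2182056, and -0.05 and -0.17 without that clone. Without 967B4 the fit called 43 of all probes, or 0.0772%, and none of the 8 member probes, whose lowest adjusted p was 0.888 (limma). A single Aid+/+ clone held most of the difference between the genotype means at the Zscan4 and Tcstv probes.

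**Figure D2:**
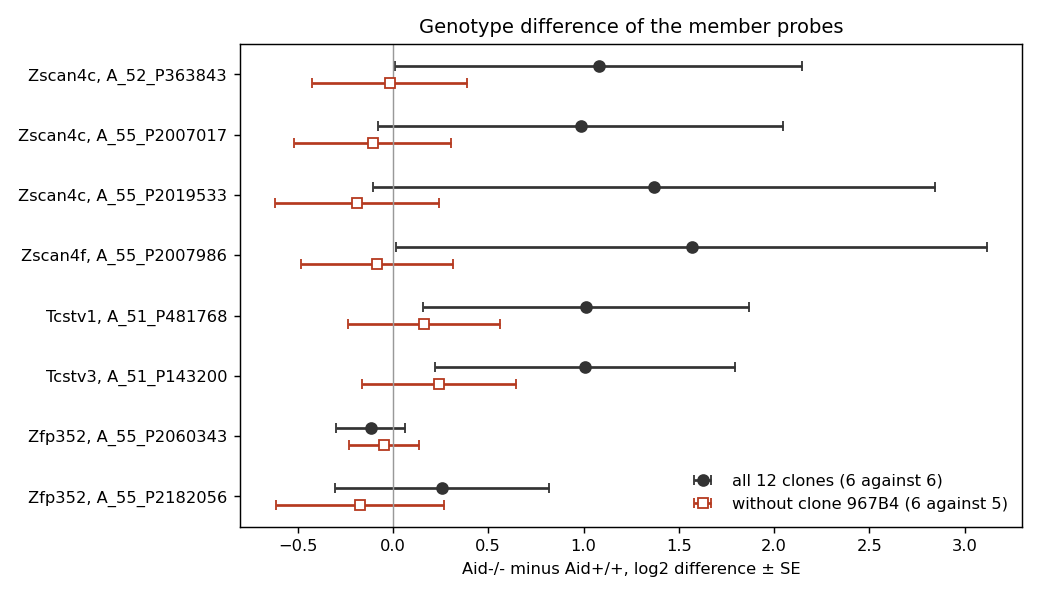
Difference between Aid-/- and Aid+/+ clones at the 8 member probes on the log2 scale, with the standard error of the limma fit as bars, over all 12 clones (filled circles) and without clone 967B4 (open squares). At Zscan4f the difference is 1.57 with all clones and -0.09 without that clone.

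Slide 3 is the only slide that holds both genotypes, in 979B and the second Aid-/- series, and 979B and 979F are the only series of both genotypes that share a number. Zscan4f was at 3.19 ± 0.80 (SD, n = 3) in 979B, 3.05 ± 0.99 in the second Aid-/- series and 3.35 ± 0.74 in 979F. Over all 8 member probes the difference of the second Aid-/- series minus 979B lay between -0.55 and 0.41, with 0 of 8 called where 4.13% of all probes were. The difference 979F minus 979B lay between -0.12 and 0.23, with 0 of 8 called where 0.614% of all probes were. At an unadjusted p of 0.05 these counts were 1 of 8, at Zfp352 probe A_55_P2060343, where 18.2% of all probes passed, and 0 of 8, where 14.6% did.

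The 4 clone series, compared with each other by a moderated F test, did not differ past the threshold at any member probe, against 4.16% of all probes (limma, lowest adjusted p 0.249 among the 8). No member probe was called in the remaining contrasts of series either. The background shares were 0.196% for the second Aid-/- series minus 967B, 1.46% for 979F minus 967B, 0.711% for 979B minus 967B and 3.02% for 979F minus the second Aid-/- series. The contrast of 979F minus 979B with the second Aid-/- series minus 967B, which asks whether the genotypes differ alike in both pairs of series, called 0.106% of all probes and no member probe. At an unadjusted p of 0.05 it too counted 0 of 8, against 9.85% of all probes, and the contrast of both Aid-/- series counted 1, against 18.4%.

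Without 967B4 the F test called 8.64% of all probes and 1 of 8 member probes, Zfp352 probe A_55_P2060343 (limma adjusted p = 0.0166). In that fit series 979B was above 967B by 0.64 and 979F above it by 0.58 at this probe, and the second Aid-/- series minus 979B was -0.55. These 3 contrasts had limma adjusted p of 0.0292, 0.0483 and 0.0167. The series 979F was above the second Aid-/- series by 0.49 (limma adjusted p = 0.0299). All these calls are of the same probe, and the share of all probes called in each of these contrasts is not given here. Series 967B had 2 clones left in it. The clone left out, 967B4, was at 3.47 at this probe, well above background and higher than every clone of 979B and 979F. With all 12 clones 979B minus 967B was 0.37 and 979F minus 967B was 0.32 (limma adjusted p = 0.598 and 0.48). The other 7 member probes were not called in any contrast of the fit without 967B4.

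Within a series, the Zscan4 and Tcstv genes varied more between sister clones than nearly all other probes. Without 967B4, the SD between clones of a series was 0.80 to 0.85 at the 4 Zscan4 probes, 0.81 at Tcstv1, 0.82 at Tcstv3 and 0.87 at Zfp352 probe A_55_P2182056. Over the 28755 probes well above background in all 11 clones the median SD was 0.18 and the 99th percentile 0.69. Zfp352 probe A_55_P2060343 had an SD of 0.09. The 11 clones spanned 2.24 on the log2 scale at Zscan4f, or 4.73-fold from 981E1 to 979F1, and 2.19 at Tcstv1, or 4.57-fold from 981E1 to 981E5.

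The families were high in the same clones. For each probe the mean over clones was subtracted, and the probes of Zscan4, Tcstv and Zfp352 were averaged per family. The Zscan4 mean ran from -7.38 in 967B4 over -0.73 in 981E1 and -0.31 in 979B1 up to 1.51 in 979F1, and the Tcstv mean from -4.54 in 967B4 over -0.72 in 981E1 up to 1.55 in 981E5. Since 967B4 lies far from the rest, the relation was read over the 11 other clones, where Pearson's r was 0.891 and Spearman's rho 0.927 (permutation test with 100000 resamples, two-sided, p = 0.00018 and 0.00016, adjusted over 3 pairs of families 0.00054 and 0.00048). With all 12 clones r was 0.976 and rho 0.944 (permutation p = 2e-05 and 1e-05, the latter the smallest that the resamples can give, adjusted 6e-05 and 3e-05). Leaving out 967B4 and 981E1, the 2 clones farthest from the median, r was 0.843.

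The relation also held between sister clones. With each series mean subtracted, and without 967B4, r between the Zscan4 and Tcstv means was 0.963, and the Zfp352 mean followed Zscan4 with r = 0.929 and Tcstv with r = 0.932. With series means kept, the Zfp352 mean of both probes followed Zscan4 with r = 0.720 (rho 0.764) and Tcstv with r = 0.674 (rho 0.673) over the 11 clones (permutation test, p = 0.0130 and 0.0225 for r and 0.00835 and 0.0273 for rho, adjusted 0.0195 and 0.0225 for r and 0.0125 and 0.0273 for rho). With normexp background correction in place of the scanner software's, this relation over 12 clones was lost, at r = 0.075 with Zscan4 and 0.131 with Tcstv (permutation test, adjusted p = 0.84 for both). Over 12 clones the r were 0.727 and 0.762 and the rho 0.818 and 0.748 (permutation test, p = 0.00087 and 0.00102 for r and 0.0019 and 0.00668 for rho, adjusted 0.00102 for both r and 0.00285 and 0.00668 for rho). Without the 2 clones farthest from the median, r was 0.517 with Zscan4 and 0.775 with Tcstv. With probe A_55_P2182056 alone as the value of Zfp352, a choice made after seeing that its probes disagree, r over 12 clones was 0.850 with Zscan4 and 0.889 with Tcstv (permutation p = 2e-05 and 5e-05, adjusted 3e-05 and 5e-05), and rho was 0.909 and 0.839 (permutation p = 9e-05 and 0.00101).

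**Figure D3:**
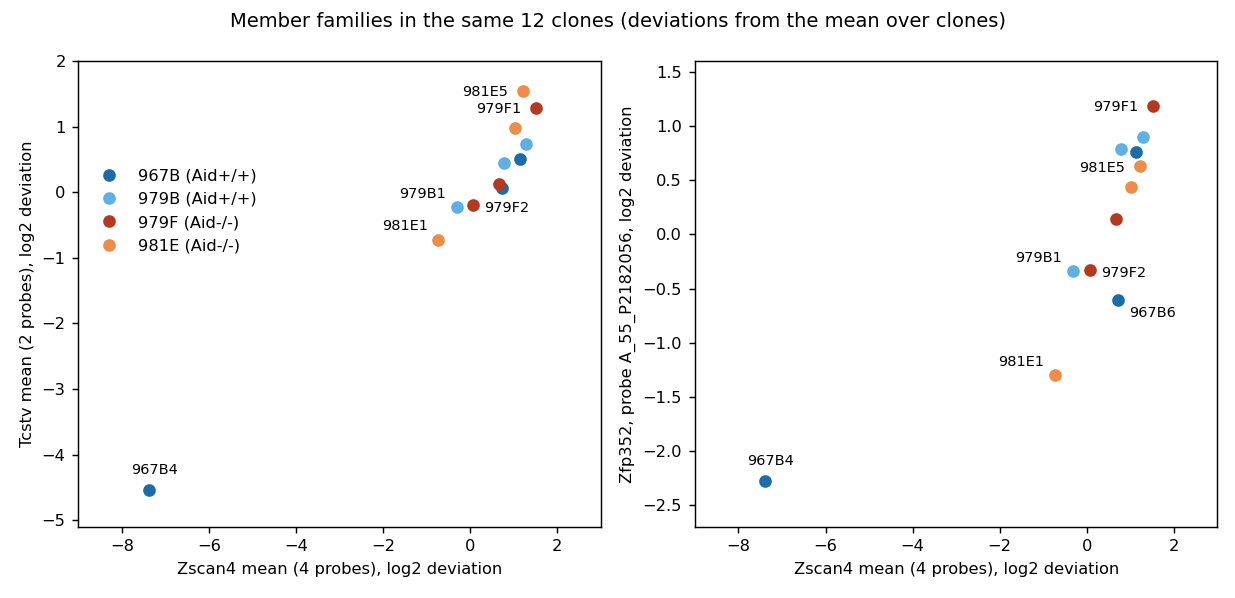
Mean log2 deviation of the 4 Zscan4 probes (horizontal axis) against that of the 2 Tcstv probes (left) and against Zfp352 probe A_55_P2182056 (right), 1 point per clone coloured by series. The clones lie along a rising line in both panels, with 967B4 alone at the lower left, at -7.38 for Zscan4 and -4.54 for Tcstv.

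The genes most alike to the members over the clones were sought among 14870 genes with 19460 probes well above background on at least 6 arrays. A member score was taken as the average of the 3 family means, and it ran from -4.28 in 967B4 and -0.73 in 981E1 to 0.97 in 981E5 and 1.17 in 979F1. The 10 genes with the highest Pearson r to it over the 12 clones were Gm8300 (0.995), BB287469 (0.994), Gm2016 (0.993), Gm4303 (0.993), Gm4312 (0.991), Gm20767 (0.991), Gm2022 (0.990), Zscan4a (0.989), AF067061 (0.989) and Gm4340 (0.989). Zscan4a is a further copy of the Zscan4 family, and Gm2016, Gm2022, Gm8300 and BB287469 encode relatives of the translation initiation factor eIF1A. Of the 10 genes, 7 were on a list of 2-cell genes drawn up for this work, and Gm4303, Gm4312 and AF067061 were not. The list held 42 genes, 26 of them with a probe, where 14870 genes were searched. It was chosen with earlier results of these data known, so the overlap is a description.

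These 10 genes were low in the same clone. Gm4340 was at -4.70 in 967B4 and at 1.52 to 3.53 in the other 11 clones. Gm20767 was at -4.82 in 967B4 and 1.16 to 3.15 in the others, and Gm2022 (A_66_P106503) at -7.00, where it was not well above background, and -0.59 to 1.42. BB287469 was well above background in 967B4 too, at -2.87 against 0.77 to 2.87. Over the 11 other clones the r of these 10 probes with the score was 0.925 to 0.965. The genes were picked from 14870 by their r over 12 clones that include these 11. These values are therefore not an independent check of the likeness. Sought over those 11 clones, 9 of the 10 genes were again among the 10 most alike, and Olfr376, an olfactory receptor gene well above background on 6 arrays, took the place of AF067061. As the probes of such families can share signal, the 10 genes are not 10 independent observations.

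**Figure D4:**
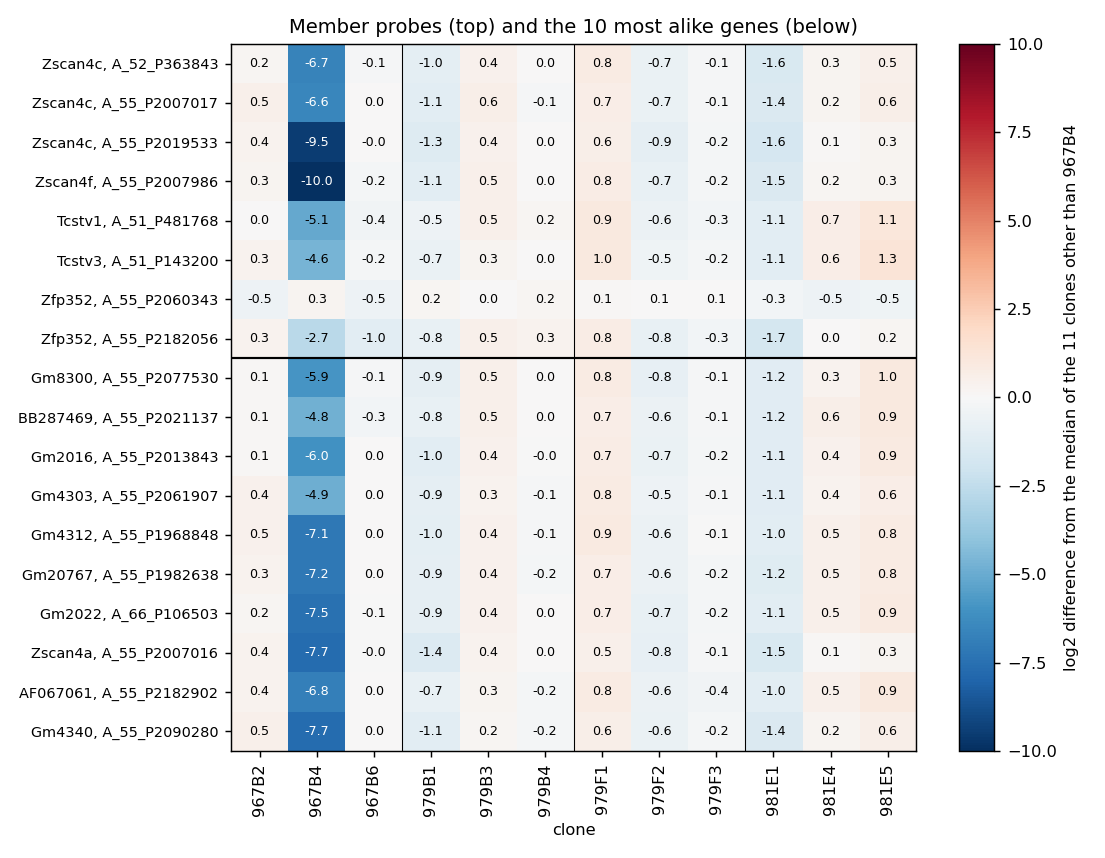
Log2 difference of each clone from the median of the 11 clones other than 967B4, for the 8 member probes (above the line) and the probes of the 10 genes most alike to them (below it), with clones in columns by series and blue for lower, red for higher. The column of 967B4 is blue in all but the row of Zfp352 probe A_55_P2060343. It is at -2.7 for Zfp352 probe A_55_P2182056 and at -4.6 or lower in the remaining rows. Clones 979B1, 979F2 and 981E1 are pale blue in the rows below the line.

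Other genes of the 2-cell state were taken from a list of 42, of which 26 had 38 probes. None was called between genotypes, against 0.0611% of all probes, nor between series, against 4.16%, and the median difference between genotypes was 0.66 over the list against -0.01 over all probes. Without 967B4 the list's median difference was 0.08, and 1 of the 38 probes was called between series, against 8.64% of all probes. It was that of Duxbl1 (A_55_P1973514), a homeobox gene (limma adjusted p = 0.00633). Of the 29 list probes well above background in the other 11 clones, 15 were not in 967B4, against 1.51% of all probes, and these belong to 11 of 19 genes. Of the 31 list probes well above background on at least 6 arrays, 24 were lower in 967B4 than the median of the other clones by more than 1 on the log2 scale, with a median of -4.17 where the median of all probes was 0.06. The 4 list genes with the widest range among those well above background on all arrays were Gm4340, Gm20767, Gm2022 and BB287469, and Gm2022 (A_55_P1983380) was at -3.51 in 967B4 and 0.37 to 2.60 elsewhere.

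Some members of the list were not low in 967B4. Usp17la probe A_55_P2002792 was at -1.66 in 967B4 and -2.29 to -1.54 in the other clones, while the other probe of the same gene, A_55_P2002795, was at -7.44 against -2.93 to -0.70. Ddit4l was at -0.36 against -1.46 to 0.14. Tdpoz1, Tdpoz3, Tdpoz4 and Rfpl4b were not well above background in any clone, so their state cannot be compared. These genes were picked after their values had been seen.

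Factors known to promote or restrain the 2-cell state were measured with 35 probes of 26 genes, and all were well above background in every one of the 11 other clones and in 967B4. None was called between genotypes, against 0.0611% of all probes, or between series, against 4.16%. Without 967B4, 4 of the 35 were called between series, against 8.64% of all probes, at Ehmt2 (limma adjusted p = 0.0398), Smchd1 (A_51_P468599, 0.0483) and both probes of Zmym2 (0.0269 and 0.0353). These encode a histone methyltransferase, a chromatin protein of X inactivation and a zinc finger protein. None differed by more than 1 between 967B4 and the median of the other clones, with a median difference of -0.15. Of all 32840 probes well above background on at least 6 arrays, 2331 were lower by more than 1 and 1088 higher. Dppa2, a chromatin protein that activates the state, was at 3.06 in 967B4 (A_66_P136844) and 2.85 to 4.18 in the others, its lowest clone being 981E5. Gata2, a transcription factor, was at -2.18 against -2.61 to -0.69. Zfp42, the pluripotency factor also called Rex1, was at 6.35 against 5.57 to 7.06, and Lin28a, an RNA-binding protein, at 4.26 against 3.99 to 5.31. For these 4, named for the widest range on the list, 967B4 lay inside the range of the other clones. Over the whole list it lay below that range at 6 probes and above it at 5, or 31.4% of the 35, against 33.3% of all probes well above background on at least 6 arrays.

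Genes of telomere maintenance and meiosis, with which Zscan4 is linked, were measured with 18 probes of 12 genes. None was called between genotypes, against 0.0611% of all probes, and 1 was called between series, against 4.16%. This was Terf1, which encodes a telomere-binding protein of the shelterin complex, at a mean of 3.60 in 979F, 4.23 in 967B, 4.34 in 979B and 4.26 in the second Aid-/- series (limma adjusted p = 0.0127). Smc1b, a meiotic cohesin subunit, had the widest range, from 0.21 in 979F2 to 3.25 in 981E5, with 2.73 in 967B4 (limma adjusted p = 0.0836 between series). Tert, the catalytic subunit of telomerase, was at -0.99 in 967B4 and -2.17 to -1.37 in the others. Dmc1, the meiotic recombinase, was at 1.24 (A_51_P289131) against 0.08 to 0.95, and the telomere-binding Terf2 (A_55_P2034350) at 1.18 against 0.64 to 1.90. Of the list's 17 probes well above background on at least 6 arrays, none was lower in 967B4 by more than 1. Of all 32840 such probes 2331 were. Clone 967B4 lay below the range of the other clones at 2 of the 17 probes and above it at 7. That is 52.9%, against 33.3% of all such probes. Dmc1, Tinf2 and Terf2ip each have more than 1 of these probes, so this is not a share over genes.

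Markers of other cells moved with 967B4 as well. All 10 pluripotency markers, among them Nanog, Pou5f1 and Sox2, were well above background in every clone, as in pluripotent cells. Of their 13 probes 1, Klf2 (A_51_P144264), was called between series (limma adjusted p = 0.00985), against 4.16% of all probes. Their summed signal, in units of the array's 75th percentile, was 1115 in 967B4, 808 to 950 in the other Aid+/+ clones and 766 to 995 in the Aid-/- clones. Of 8 fibroblast markers, 3 were well above background in 967B4 and 7 or 8 in each other clone. Col3a1, Postn, Twist2, Fbn1 and Lox were not well above background in 967B4, and Postn was not in 967B6 either. Col1a2 was at -3.79 in 967B4 against 0.75 to 3.84. The summed signal of the fibroblast markers was 1.76 in 967B4, 6.41 to 15.7 in the other Aid+/+ clones and 12.3 to 30.9 in the Aid-/- clones. Clone 979F3 had the highest fibroblast sum, 30.9, with a member score of 0.32, and 967B6 the lowest of the 11, 6.41, with a score of 0.10. Among the 11, 979F1 had the highest member score, 1.17, with a sum of 21.6. The lowest score, -0.73, was that of 981E1, with a sum of 16.6. These are only the ends of each measure. The part of the fibroblast markers in the result for the member genes was not tested.

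Markers of further lineages showed no shift of that size over a whole list. The summed signal of 5 trophoblast markers was 3.33 in 967B4 and 0.92 to 2.47 in the other clones. Eomes (A_55_P2150717) was at 1.25 in 967B4 against -1.90 to -0.69. The mean log2 signal of the list was -2.74 in 967B4, inside the -3.58 to -2.26 of the others. Cdx2 and Elf5 were not well above background in 967B4, nor in 979B1, 979B4 and 981E5. Without 967B4 both Eomes probes were called between series (limma adjusted p = 0.00521 and 0.0281). They were 2 of the list's 6 probes, against 8.64% of all probes. The sum of 6 primitive endoderm markers was 0.46 against 0.50 to 1.38, with Sox17 and Dab2 not well above background there. Their mean log2 signal in 967B4 was -4.23, inside the -4.39 to -2.17 of the others. The sum of 6 oocyte and germ cell markers was 4.59 against 4.71 to 6.58, with Bmp15 and Oosp1 not well above background in any clone. The mean log2 signal of this list in 967B4 was -2.765, inside the -2.848 to -2.261 of the others. Of its 7 probes 1, Gdf9 (A_51_P220806), was called between series (limma adjusted p = 0.0429), against 4.16% of all probes. Their part in the result was not tested.

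**Figure D5:**
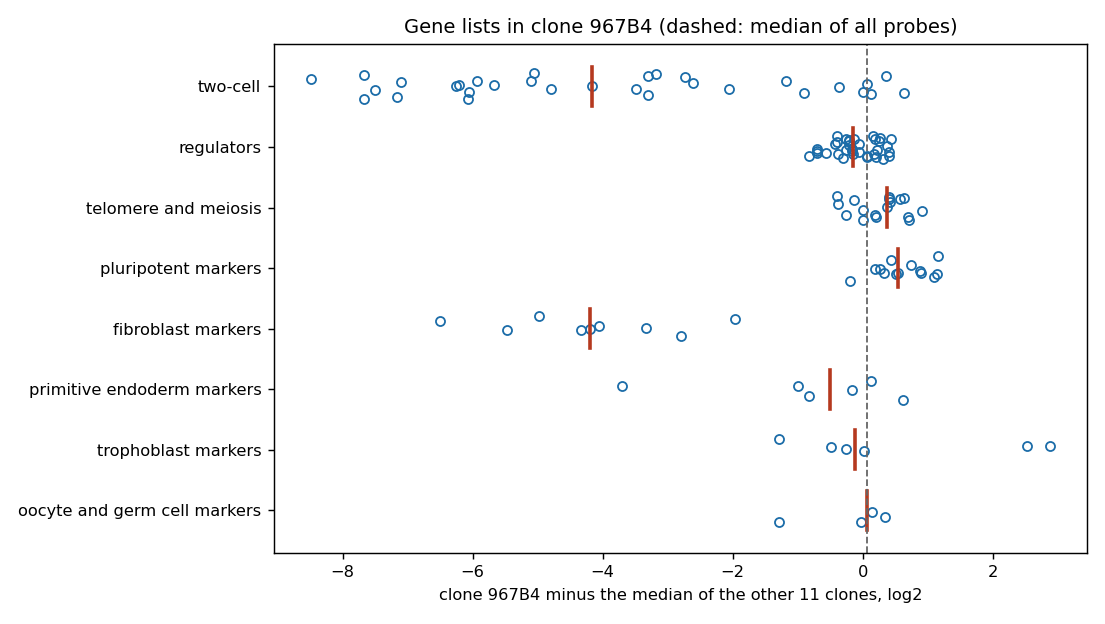
Difference between clone 967B4 and the median of the other 11 clones on the log2 scale for the probes of 8 gene lists that were well above background on at least 6 arrays (circles), with each list's median as a red bar and the median of all such probes as a dashed line. The medians of the 2-cell genes (-4.17) and of the fibroblast markers (-4.19) lie far to the left, and those of the regulators (-0.15) and of the telomere and meiosis genes (0.37) lie near the dashed line.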

How the data were processed

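RNA of 12 iPS cell clones, 1 one-colour array each, was measured. The authors' files hold spot intensities from Feature Extraction 10.7.3.1, corrected for background but not scaled between arrays, and flags of other kinds. The authors also deposited log2 values from GeneSpring GX 11 with each array's 75th percentile at 0, which were used as an alternative. Control spots and outlier flags were left out, spots of a probe were averaged, and log2 intensities were set to the 75th percentile of each array. Genes were named through probe accessions in RefSeq's annotation (27229 probes). Differences were tested with limma 3.58.1 (R 4.3.3) and Benjamini-Hochberg adjustment over 55681 probes. The fits were also run on simulated data with clones drawn independently. That run does not cover clones that are alike within a series or slide. Relations between families used permutation tests (scipy 1.17.1). Clones are the replicates, and p-values measure the spread between them. The number of arrays limits the precision. The signal of the targeted gene is not reported here.

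The members and gene lists were chosen with earlier results of these data known. Named were all member probes, probes of the 2-cell, regulator and telomere lists called in a test of genotype or series, up to 4 genes of each of these lists with the widest range, and the 10 genes most alike to the members. Alternatives were normexp, quantile and detected-probe scaling, the deposited log2 values, filters on dim probes, trend and robust estimation, slide or series as a block, the methods' t-test, a fold threshold and leaving out each clone.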

Additional observations from a re-analysis of the deposited data

Results flagged for a closer look

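In 16 groups (8 member probes in 2 genotypes of 6 clones), the gap between the most extreme clone and its nearest neighbour, as a share of the group's range, exceeded Dixon's critical value in 6, where chance would give this in about 5% of groups. All 6 were the Zscan4 and Tcstv probes in Aid+/+ clones, and the clone was 967B4 each time, so they are 1 array seen 6 times. Its values were -7.14 (Zscan4c A_52_P363843, next clone -1.45), -4.84 (Zscan4c A_55_P2007017, next 0.66), -7.26 (Zscan4c A_55_P2019533, next 0.90), -6.63 (Zscan4f, next 2.30), -7.10 (Tcstv1, next -2.45) and -7.11 (Tcstv3, next -3.15). No clone stood out in this way among the Aid-/- clones or at either Zfp352 probe.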

How the results depend on the processing

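Of 176 counts of called member probes over 9 comparisons and their alternatives, 171 were 0. The other 5 were 1, all without 967B4 and all Zfp352 A_55_P2060343, so that leaving out 1 clone gave 0 to 1 for the series F test and for 4 of the 6 pairs of series. None of 177 alternative genotype differences passed the threshold, and 11 changed sign. With slide as a fixed block, where only slide 3 compares the genotypes, these were -0.069 (Zscan4c A_52_P363843), -0.022 (A_55_P2007017), -0.12 (A_55_P2019533), -0.14 (Zscan4f) and -0.53 (Zfp352 A_55_P2182056). Normexp gave -0.009 for the last. Leaving out 1 clone gave -0.018 to 1.40, -0.11 to 1.32, -0.19 to 1.78, -0.086 to 2.02 and -0.17 to 0.54 in the same order, the lowest always without 967B4.

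Over all probes, 34 genotype calls became 518 with normexp, 3.15 times as many with quantile scaling, 109 and 481 for probes well above background on at least 1 and on all 12 arrays, 288 with trend and robust estimation, 2299 and 12 with slide as a fixed and a random block, 6 with series as a random block, 360 by the methods' t-test, 19 with a fold over 2 as well and 6 to 67 leaving out 1 clone. The 2318 series calls became 4052, 4572 and 3498 with normexp, the filter on all 12 arrays and trend, and 771 to 4810 leaving out 1 clone. The relation of Zscan4 and Tcstv kept r between 0.891 and 0.988. With normexp, r of Zfp352 with Zscan4 was 0.075 and with Tcstv 0.131 (permutation test, adjusted p = 0.84 for both), and the cause was not tested. No paired analysis was possible because no label ties single clones of the 2 genotypes. Only series 979B and 979F share a number, and their contrast stands in for a block by that number. Probes near background give only bounds, which limits Zfp352 A_55_P2182056 and the value of 967B4.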
